A study of Mus musculus with 4 samples.

Results

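The clustered replication-dependent histone genes of the mouse were followed in cultured germline stem (GS) cells. Members were all annotated genes on chromosomes 1 to 19 whose RefSeq symbol begins with Hist1h, Hist2h, Hist3h, Hist4h, H1f, H2ac, H2bc, H3c or H4c, which gave 70 of 47042 genes. Of these, 57 were core genes (H2A, H2B, H3 or H4), 9 were linker genes (H1) and 4 were testis-type genes (H2ac1, H2bc1, H1f6 and H1f7). H2ac14 and H2ac5-ps, counted among the core genes, are annotated as pseudogenes. In all, 65 members stood in 3 clusters, 1 of 10 members over 50.3 kb of chromosome 3 and 2 on chromosome 13, with 23 members over 328 kb and 32 members over 404 kb. The 5 others, H1f10, H1f8, H1f0, H1f7 and the pseudogene H1f11-ps, stood alone. The symbol rule therefore also takes in H1f10, H1f8 and H1f0, which are known as replication-independent linker genes. It takes in H1f7 too, the gene of a spermatid protein. It reads current symbols alone, and no member bore a symbol of the older Hist form. Histone genes listed under other symbols, such as H2aw, H2bu2, H4f16 and H4bc24, are therefore not members.

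GS cells are long-term cultures of spermatogonial stem cells, the testis cells that sustain sperm production. Cultures called 60M-GS were about 60 months old and cultures called 5M-GS about 5 months old, all grown in an Iscove-based medium with FGF2, GDNF and 1% fetal bovine serum. Both groups were labelled wild type and came from the testis of Tg14(act-EGFP)OsbY01 animals (Green mice, C57BL/6) bred on DBA/2, so both carry the EGFP transgene. Bisulfite sequencing of the whole genome, with adaptors added after the bisulfite step, covered 2 replicates of each age, which were deposited pooled as 1 table per age. No spread between replicates could therefore be had, and each Fisher's exact test below compares the calls of the 2 pooled libraries, not the culture ages. Chromosomes 1 to 19 carried 463443117 calls at 18588166 CpGs in the table of 60M-GS cells and 460132775 calls at 18618741 CpGs in that of 5M-GS cells, and the median CpG had 22 calls in each. No RNA was measured, so neither expression of the genes nor the identity of the cells could be checked.

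Core histones form the protein spool around which DNA winds, and linker histones bind the DNA between spools. The replication-dependent genes are intronless as a rule, are switched on together in S phase, and give mRNAs that end in a stem-loop instead of a poly(A) tail. During spermatogenesis testis variants such as TH2A (H2ac1), TH2B (H2bc1), H1t (H1f6) and the spermatid protein H1T2 (H1f7) replace part of the somatic set before protamines take over. CpG methylation at a promoter is in general associated with silence of the gene.

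The 250 bases before the annotated start are given for 6 members, from RefSeq on GRCm38.p6 (the mm10 build), read 5′ to 3′ on the strand of the gene, with every CpG in capitals. H1f7 is shown because it was the member that changed, H1f6 and H2bc1 as testis-type genes that were low in both tables, H1f4 as a somatic linker gene, H2bc7 as a core gene and H2bc23 as a core gene whose start had no measured CpG. H1f7 lies at chr15:98257308-98257557 (minus strand), H1f6 at chr13:23695561-23695810 (plus strand), H2bc1 at chr13:23934157-23934406 (minus strand), H1f4 at chr13:23622559-23622808 (minus strand), H2bc7 at chr13:23574208-23574457 (minus strand) and H2bc23 at chr13:21810200-21810449 (minus strand).
H1f7: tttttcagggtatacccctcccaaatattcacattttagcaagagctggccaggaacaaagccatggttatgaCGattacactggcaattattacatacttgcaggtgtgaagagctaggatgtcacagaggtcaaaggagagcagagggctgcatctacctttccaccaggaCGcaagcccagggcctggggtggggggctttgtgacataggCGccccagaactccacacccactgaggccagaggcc
H1f6: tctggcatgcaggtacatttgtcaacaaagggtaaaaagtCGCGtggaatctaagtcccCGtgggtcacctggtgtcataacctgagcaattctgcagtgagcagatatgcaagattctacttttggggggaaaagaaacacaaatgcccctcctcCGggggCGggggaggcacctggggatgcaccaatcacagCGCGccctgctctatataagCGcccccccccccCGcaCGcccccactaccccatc
H2bc1: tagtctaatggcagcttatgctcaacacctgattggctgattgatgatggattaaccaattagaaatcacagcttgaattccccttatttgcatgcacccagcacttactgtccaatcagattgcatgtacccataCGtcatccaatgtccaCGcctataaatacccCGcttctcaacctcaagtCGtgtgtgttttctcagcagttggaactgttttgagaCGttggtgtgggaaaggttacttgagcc
H1f4: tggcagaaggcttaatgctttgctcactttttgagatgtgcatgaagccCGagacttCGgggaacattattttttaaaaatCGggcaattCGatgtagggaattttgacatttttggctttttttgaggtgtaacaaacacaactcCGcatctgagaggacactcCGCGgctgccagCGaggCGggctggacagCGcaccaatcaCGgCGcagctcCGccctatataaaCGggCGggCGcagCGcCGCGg
H2bc7: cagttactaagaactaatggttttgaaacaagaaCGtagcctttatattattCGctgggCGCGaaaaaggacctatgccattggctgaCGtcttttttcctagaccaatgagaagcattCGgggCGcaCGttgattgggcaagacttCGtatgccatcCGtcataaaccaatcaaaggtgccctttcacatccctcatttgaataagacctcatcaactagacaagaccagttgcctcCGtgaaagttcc
H2bc23: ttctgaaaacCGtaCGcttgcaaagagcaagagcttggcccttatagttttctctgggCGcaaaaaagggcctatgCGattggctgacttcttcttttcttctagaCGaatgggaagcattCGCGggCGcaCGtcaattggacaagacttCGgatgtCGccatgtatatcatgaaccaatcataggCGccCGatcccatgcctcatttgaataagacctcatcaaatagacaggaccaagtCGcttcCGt
These stretches hold 3 CpGs in H1f7, against 10 in H1f6, 5 in H2bc1, 19 in H1f4, 11 in H2bc7 and 15 in H2bc23. The 3 CpGs of H1f7 had 77.9% of 77 calls methylated in 60M-GS cells and 2.86% of 70 calls in 5M-GS cells. In H1f6, 3 of the 10 CpGs were measured, with 1.87% of 107 calls methylated in 60M-GS cells and 0% of 107 calls in 5M-GS cells, which allows a share of up to 2.80%. The H2bc1 stretch had 0% of 118 calls methylated in 60M-GS cells, which allows a share of up to 2.54%, and 6.15% of 130 calls in 5M-GS cells. The 18 CpGs measured in H1f4 had 0.244% of 410 calls methylated in 60M-GS cells and 0.410% of 488 calls in 5M-GS cells. The H2bc7 stretch had 0.353% of 283 calls methylated in 60M-GS cells, against 0.413% of 242 calls in 5M-GS cells.

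The level of a gene is the percent of methylated calls over its annotated span with 1 kb on each side, counting CpGs that both tables cover 5 times or more, and a span was tested where it held at least 4 such CpGs. A change was called where the adjusted p was under 0.05 and the tables differed by 20 percentage points or more. Of the 68 members that could be tested, 1 gained methylation and 0 lost it. The gain was that of H1f7, which stands outside the clusters. Of the 63 tested members in clusters, 0 were called. The background over all 45017 gene spans tested was 4.53% called as a gain and 0.0733% called as a loss. Among the 2060 tested protein-coding genes with a span of at most 2 kb, 9.37% were called as a gain and 0.0971% as a loss. The median member had 1.88% of its calls methylated in 60M-GS cells and 1.69% in 5M-GS cells, while the median over all gene spans was 77.5% in 60M-GS cells and 74.6% in 5M-GS cells. In all, 59 of the 68 members were under 10% in both tables. The median difference, 60M-GS minus 5M-GS, was -0.0589 points over the members and 0.224 points over all gene spans.

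**Figure D1:**
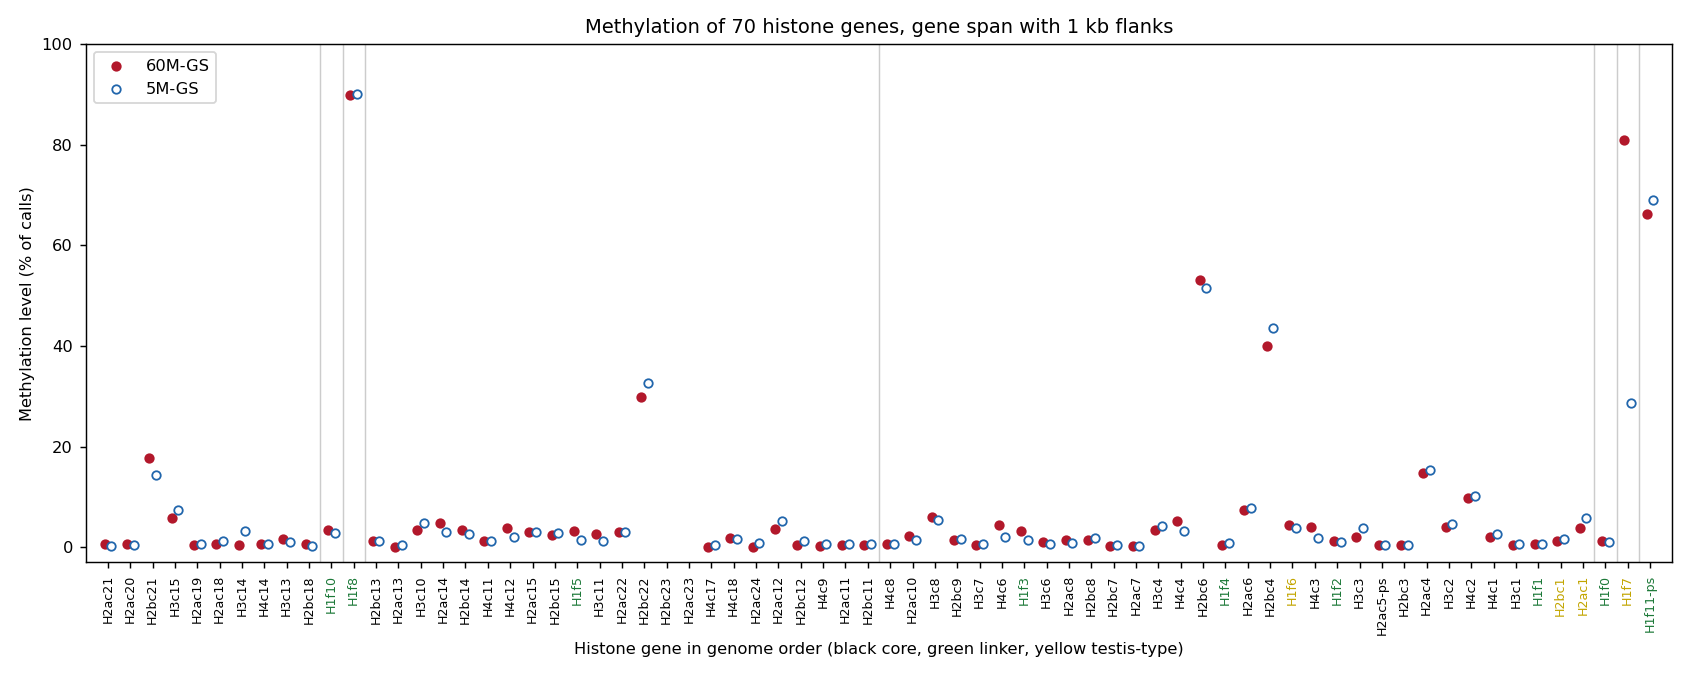
Methylation level in percent of calls (y axis) of each of the 70 histone genes in genome order (x axis), with filled points for 60M-GS and open points for 5M-GS; thin lines separate clusters and single genes, and no point is drawn for H2bc23 and H2ac23, which had no measured CpG. The points of both groups nearly coincide for all genes other than H1f7, at 80.9% in 60M-GS cells and 28.6% in 5M-GS cells.

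Compact clustered genes were low almost throughout. Of the 59 tested members in clusters with a span of at most 2 kb, 57 were under 10% in both tables, against 179 of the 2060 tested protein-coding genes of that length. These 2060 include the protein-coding members themselves. Low genes seldom changed in the genome at large. Of the 1434 tested genes under 10% in 5M-GS cells, 24 gained methylation, whereas 559 of the 3608 tested genes at 20% to 40% in 5M-GS cells did. H1f7 had 28.6% in 5M-GS cells over its whole window, but this value mixes low and methylated parts. In 5M-GS cells the 663 bp of the gene nearest the start had 3.47% and the 663 bp at the far end had 67.0%. Whether the level in 5M-GS cells bears on the rise was not tested. The windows of 54 members overlap that of another member, so neighbouring values share CpGs.

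The median level of the 55 tested core genes was 1.66% in 60M-GS cells and 1.68% in 5M-GS cells, and 0 of them were called in either direction. By histone, the median level of H2A genes was 0.736% in 60M-GS cells and 0.898% in 5M-GS cells. H2B genes had a median of 1.43% in 60M-GS cells and 1.79% in 5M-GS cells. For H3 genes the median was 2.38% in 60M-GS cells and 3.56% in 5M-GS cells, and for H4 genes it was 1.88% in 60M-GS cells and 1.80% in 5M-GS cells. Differences of core genes ran from -3.44 to 3.34 points.

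The highest core levels belonged to 4 H2B genes with long annotated spans and to H2ac4. H2bc6, annotated over 37455 bp, had 53.1% in 60M-GS cells and 51.6% in 5M-GS cells. H2bc4 had 40.1% in 60M-GS cells and 43.5% in 5M-GS cells, and H2bc22 had 29.9% in 60M-GS cells and 32.7% in 5M-GS cells. H2bc21 had 17.7% in 60M-GS cells and 14.4% in 5M-GS cells. In each of these 4, at least 1 measured end of the span was under 1% in both tables, while the stretch between the ends was higher, from 25.0% (H2bc21) to 60.7% (H2bc6) in 60M-GS cells and from 22.8% (H2bc21) to 62.4% (H2bc4) in 5M-GS cells. No CpG was measured in the last 500 bp of H2bc22. For H2bc21 the first 500 bp by coordinate had 0.614% in 60M-GS cells and 0.431% in 5M-GS cells, while the last 500 bp had 89.4% in 60M-GS cells and 85.2% in 5M-GS cells. The last 500 bp of H2bc6 had 0.645% in 60M-GS cells and 0.491% in 5M-GS cells, against 60.7% in 60M-GS cells and 60.4% in 5M-GS cells between its ends. H2ac4, which spans 505 bp, had 14.7% in 60M-GS cells and 15.3% in 5M-GS cells with its flanks.

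Differences among core genes were small, whether or not the test passed. The 5 most positive differences were those of H2bc21 (3.34 points), H4c6 (2.40 points), H4c3 (2.19 points), H4c4 (1.96 points) and H4c12 (1.78 points), of which H4c4 and H4c12 did not reach an adjusted p under 0.05. H4c6 had 61 of 1368 calls methylated in 60M-GS cells and 25 of 1213 calls in 5M-GS cells, a difference of 2.40 points (95% Newcombe interval 1.03 to 3.79). The 5 most negative differences were those of H2bc4 (-3.44 points), H2bc22 (-2.82 points), H3c14 (-2.76 points), H3c3 (-1.84 points) and H2ac12 (-1.65 points), of which only H3c14 and H3c3 reached an adjusted p under 0.05. Of the 68 tested members, 10 had an adjusted p under 0.05 by Fisher's exact test, against 17767 of the 45017 gene spans, and those other than H1f7 differed by at most 3.34 points in size. Coverage ran from 14.6 calls per CpG in 60M-GS cells and 13.2 in 5M-GS cells at H2ac18 to 32.6 in 60M-GS cells and 31.1 in 5M-GS cells at H3c13.

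The 5 clustered linker genes, which encode the somatic H1 subtypes made in S phase, were low in both tables. H1f1 had 0.732% in 60M-GS cells and 0.607% in 5M-GS cells, H1f2 had 1.20% in 60M-GS cells and 1.12% in 5M-GS cells, and H1f4 had 0.441% in 60M-GS cells and 0.854% in 5M-GS cells. H1f3 had 62 of 1871 calls methylated (3.31%) in 60M-GS cells and 26 of 1874 (1.39%) in 5M-GS cells, a difference of 1.93 points (95% interval 0.964 to 2.94, adjusted p = 0.000384 by Fisher's exact test). H1f5 had 3.19% in 60M-GS cells and 1.50% in 5M-GS cells, a difference of 1.69 points (95% interval 0.822 to 2.59, adjusted p = 0.000755 by Fisher's exact test). Neither reached the size asked of a call.

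The single linker genes fell into low and methylated ones, and none was called. H1f0, which encodes the replacement linker histone of resting and differentiated cells, had 1.15% in 60M-GS cells and 1.04% in 5M-GS cells. H1f10, which encodes H1X, had 3.43% in 60M-GS cells and 2.90% in 5M-GS cells. The oocyte linker gene H1f8 was methylated throughout, with 89.8% in 60M-GS cells and 90.1% in 5M-GS cells, a difference of -0.295 points (95% interval -2.01 to 1.43). The pseudogene H1f11-ps had 66.2% in 60M-GS cells and 69.0% in 5M-GS cells, a difference of -2.82 points (95% interval -7.64 to 2.03).

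Among the testis-type genes, the 3 on chromosome 13 were low and H1f7 gained methylation. H1f6, the gene of the spermatocyte linker histone H1t, had 44 of 1003 calls methylated (4.39%) in 60M-GS cells and 41 of 1077 (3.81%) in 5M-GS cells, a difference of 0.580 points (95% interval -1.14 to 2.34). H2bc1 had 33 of 2546 calls methylated (1.30%) in 60M-GS cells and 39 of 2277 (1.71%) in 5M-GS cells, a difference of -0.417 points (95% interval -1.14 to 0.275). H2ac1, its divergent neighbour, had 84 of 2153 calls methylated (3.90%) in 60M-GS cells and 123 of 2081 (5.91%) in 5M-GS cells. That difference of -2.01 points (95% interval -3.33 to -0.709) passed Fisher's exact test with an adjusted p of 0.00874 but not the size asked of a call.

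H1f7 had 1316 of 1626 calls methylated (80.9%) in 60M-GS cells and 450 of 1572 (28.6%) in 5M-GS cells, over 59 CpGs. The difference was 52.3 points (95% interval 49.3 to 55.2, adjusted p = 7.84e-202 by Fisher's exact test over all gene spans). This rise ranked 203 among the 45017 gene spans tested and 21 among the 2060 short protein-coding genes. Calls on 1 read are not independent, and with the calls of each span divided by its number of CpGs the same difference had an adjusted p of 0.0677, so the call was lost. Over 8 alternative settings the difference ran from 36.7 to 56.6 points. Chromosome 15 as a whole had fewer calls in the 60M-GS table, with 25.4 calls per CpG in 60M-GS cells and 30.4 in 5M-GS cells (ratio 0.834, against 1.03 on chromosomes 3, 6, 13 and 19). The H1f7 window itself had 27.6 calls per CpG in 60M-GS cells and 26.6 in 5M-GS cells, and the part of the chromosome's depth in the result was not tested.

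H1f7 is annotated at chr15:98255982-98257307 on the minus strand. Among the stretches compared, its rise was largest in the 663 bp of the gene nearest the start. In the 663 bp of the gene nearest the start, 84.1% of 895 calls were methylated in 60M-GS cells and 3.47% of 779 calls in 5M-GS cells. The 663 bp at the far end had 85.5% in 60M-GS cells and 67.0% in 5M-GS cells, a smaller difference of 18.5 points (95% interval 13.1 to 23.7), against 80.7 points (95% interval 77.7 to 83.2) near the start. The 1 kb before the start had 71.1% in 60M-GS cells and 12.2% in 5M-GS cells on 7 CpGs. Farther out the tables met again. From 1 to 3 kb before the start the level was 82.8% in 60M-GS cells and 82.9% in 5M-GS cells, and from 1 to 3 kb beyond the far end it was 85.5% in 60M-GS cells and 84.0% in 5M-GS cells. The low stretch at the H1f7 start in 5M-GS cells thus had no counterpart in 60M-GS cells.

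**Figure D2:**
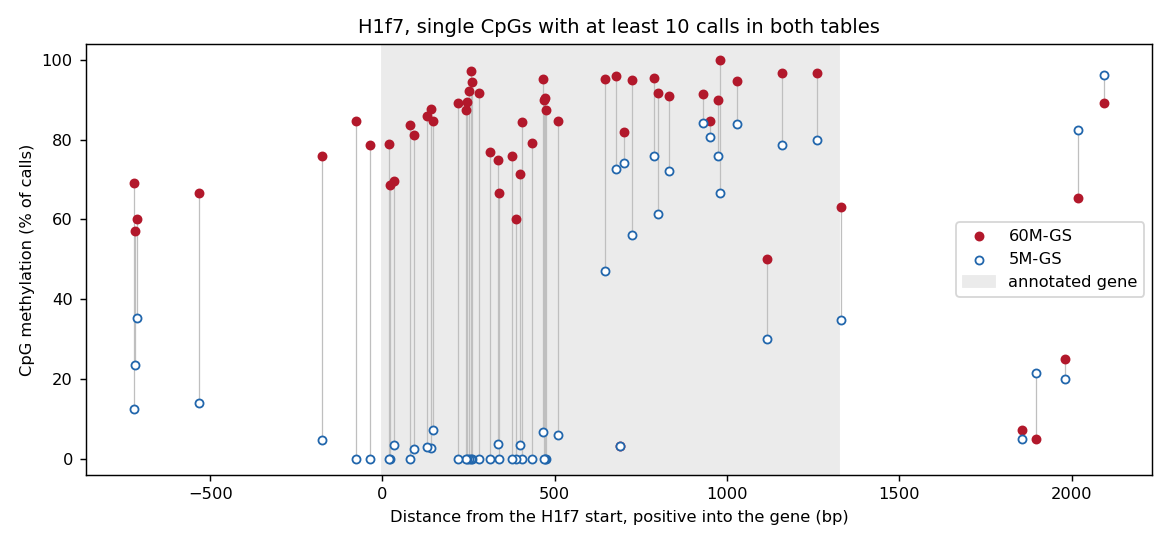
Methylation in percent of calls (y axis) of the 57 single CpGs of H1f7 with at least 10 calls in both tables, by distance in bp from the annotated start (x axis, positive into the gene); filled points are 60M-GS, open points 5M-GS, lines join the same CpG and the shaded stretch is the annotated gene. Between -531 and 725 bp, the positions of the outermost called CpGs, nearly every CpG lies far higher in 60M-GS cells. The medians of the 34 called CpGs are 84.6% in 60M-GS cells and 0% in 5M-GS cells.

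Single CpGs show the same outline, on the same calls that made H1f7 a called span, so they are no separate support. With at least 10 calls in both tables, 34 of the 57 CpGs of H1f7 gained methylation, against a background of 2.01% of CpGs called as a gain and 0.218% called as a loss over 15030440 tested. All 34 lay between positions -531 and 725 relative to the start, bounds that they set, where 37 CpGs were tested. Their levels ran from 60.0% to 97.3% in 60M-GS cells and from 0% to 56.1% in 5M-GS cells, and 21 of them had 0 methylated calls in 5M-GS cells, which allows shares of up to 7.14% to 25% at their depths. The windows of the other members together held 2962 tested CpGs, of which 6 gained and 1 lost methylation. Of these 7, single gains lay in H2ac15, H1f3 and H4c4, and 3 gains and the loss lay in the long span of H2bc6. The H1f3 CpG, at chr13 position 23554415, had 24 of 36 calls methylated in 60M-GS cells and 4 of 32 in 5M-GS cells. The H2bc6 loss, at position 23609290, had 2 of 22 calls methylated in 60M-GS cells and 13 of 20 in 5M-GS cells.

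No other gene within 100 kb of H1f7 was called. The olfactory receptor gene Olfr284 had 89.3% in 60M-GS cells and 74.4% in 5M-GS cells, 14.9 points higher (adjusted p = 3.19e-25 by Fisher's exact test) and below the size of a call. The zinc finger gene Zfp641 had 60.6% in 60M-GS cells and 61.8% in 5M-GS cells. Ccdc184, on the other side, had 17.3% in 60M-GS cells and 17.9% in 5M-GS cells.

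Start windows, from 250 bases before to 50 bases after a RefSeq start, were given for 62 members in 63 windows. Of the 55 member windows tested, 1 (H1f7) gained methylation and 0 lost it, against a background of 4.37% called as a gain and 0.891% called as a loss over 20763 windows. In H1f7 the window had 102 of 135 calls methylated (75.6%) in 60M-GS cells and 3 of 147 (2.04%) in 5M-GS cells, on 6 CpGs. Of the other 54, 53 were under 10% in both tables. The exception was the oocyte gene H1f8, with 87.8% in 60M-GS cells and 89.0% in 5M-GS cells. At the shared start region of H2bc1 and H2ac1 levels were lower in 60M-GS cells, but the differences did not pass the test. The H2bc1 window had 0 of 224 calls methylated in 60M-GS cells, which allows a share of up to 1.34%, and 8 of 227 in 5M-GS cells (adjusted p = 0.0873 by Fisher's exact test). The H2ac1 window had 3 of 256 calls methylated in 60M-GS cells and 11 of 202 in 5M-GS cells (adjusted p = 0.130 by Fisher's exact test).

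The letters of these windows were searched on both strands for the TATA box letters TATAAA, for CCAAT, for the octamer ATTTGCAT that is known from H2B promoters and for the AAACACA element that is known from H1 promoters, whether or not matches overlapped. CCAAT occurred in 82.5% of the member windows, against 37.3% of all 31396 windows. TATAAA occurred in 54.0% of the member windows and 13.6% of all windows. ATTTGCAT occurred in 20.6% of the member windows and 1.75% of all windows, among them 6 of 14 H2B windows, 5 of 16 H2A windows and 0 of the H3 and H4 windows. AAACACA occurred in 14.3% of the member windows and 7.28% of all windows, among them 4 of 8 linker windows and 3 of 4 testis-type windows. The H1f7 window held none of the 4 motifs and the H1f6 window held CCAAT and AAACACA. Windows of divergent neighbours, such as H2bc1 and H2ac1, overlap, so the same letters can count in both. These matches describe letters and were not tested against methylation.

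H2A and H2B genes often stand head to head and share the stretch between their starts. Of 13 neighbouring pairs, 9 were divergent by strand, and for each of the others the strand of a gene was not available. Of the 9 divergent pairs, 8 had measured CpGs in the 163 to 280 bp between the genes. Their levels had a median of 0.520% in 60M-GS cells and 0.151% in 5M-GS cells, and none was over 8.33% in 60M-GS cells or 6.45% in 5M-GS cells. The 8.33% came from H2ac15 and H2bc15, on only 2 CpGs with 12 calls in 60M-GS cells. The pair of testis genes H2bc1 and H2ac1 gave the 6.45%, against 0.971% in 60M-GS cells. In the pairs without a full set of strands, levels were at most 3.57% in 60M-GS cells (28 calls) and 1.42% in 5M-GS cells (141 calls).

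Coverage at the starts was uneven. Of 838 CpGs in the reference letters of the member start windows, 666 (79.5%) were measured in both tables, against 91.8% over all windows. Windows that share long runs with another window had fewer CpGs measured in all. The 12 windows that share a run of at least 40 bases with another gene's window had 44.6% of their CpGs measured, and the 51 without had 95%. The H2bc23 window, mostly printed above, shares all 300 bases with that of a gene in the same cluster listed as H4bc24, and none of its CpGs was measured. H4c17 and H4c18 share 285 bases, H3c14 and H3c15 share 231 bases and H2ac18 and H2ac19 share 219 bases. With shorter runs of 72 bases in H4c11 and H4c12 and 40 bases in H2ac7, all CpGs were measured, while H1f6, which shares no such run, had 3 of 10 measured. No value could be had for H2bc23 and H2ac23. H1f7 shares no such run.

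Around the compact clustered genes the level rose with distance. The distance bins take in every CpG at that distance, whether in a gap, in another gene or outside the clusters. The level within the 60 clustered genes of at most 2 kb was 0.507% in 60M-GS cells and 0.394% in 5M-GS cells. It stayed low up to 500 bp from a gene, at 1.38% in 60M-GS cells and 1.47% in 5M-GS cells from 251 to 500 bp. From 501 to 1000 bp it was 13.9% in 60M-GS cells and 12.8% in 5M-GS cells. From 1001 to 2000 bp it was 60.3% in 60M-GS cells and 60.9% in 5M-GS cells. The low zone around the genes thus lay within 1 kb of them at both ages, but single low CpGs also lay farther out. From 1001 to 2000 bp, 18.5% of CpGs were under 10% in 60M-GS cells and 18.5% in 5M-GS cells. From 5001 to 20000 bp, 26.9% were under 10% in 60M-GS cells and 27.6% in 5M-GS cells.

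**Figure D3:**
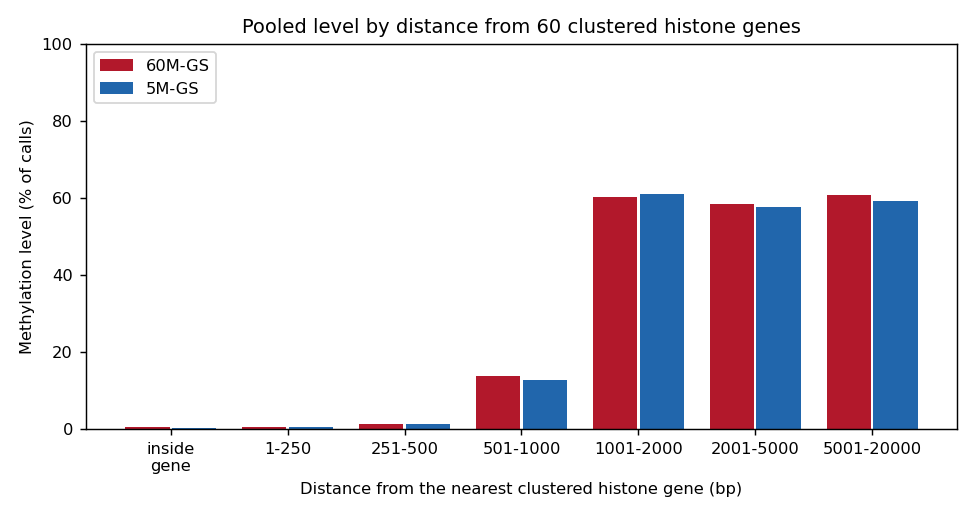
Pooled methylation level in percent of calls (y axis) by distance in bp from the nearest of the 60 clustered histone genes with a span of at most 2 kb (x axis); left bars are 60M-GS and right bars 5M-GS. Bars stay under 2% up to 500 bp and stand near 60% beyond 1 kb in both groups.

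Gaps were stretches inside the clusters with no annotated gene within 1 kb. Of 68 gaps, 58 were tested, and 1 gained and 0 lost methylation, against a background of 2.06% of intergenic stretches called as a gain and 0.122% called as a loss. Their median level was 75.4% in 60M-GS cells and 74.6% in 5M-GS cells, and 40 of the 58 were over 60% in both. The called gap, 602 bp with 7 CpGs between the tRNA genes n-TVcac8 and n-TIaat7, had 69.8% of 232 calls methylated in 60M-GS cells and 36.5% of 197 calls in 5M-GS cells, 33.3 points higher (95% interval 24.0 to 41.8, adjusted p = 4.24e-11 by Fisher's exact test). It was not called where calls were divided by CpGs, and it could not be tested where 10 CpGs were asked for. The nearby gap from n-TTagt1 to H2ac12 had 48.8% in 60M-GS cells and 31.9% in 5M-GS cells, 16.9 points higher (95% interval 12.8 to 21.0). The next positive differences among tested gaps were 8.24 points from H4c3 to Hfe (adjusted p = 0.211 by Fisher's exact test), 7.98 points from H3c10 to H2ac14 (adjusted p = 0.114) and 6.22 points from Pom121l2 to n-TSgct8 (adjusted p = 0.0171). The most negative difference among tested gaps was from H2bc12 to H4c9, with 62.2% in 60M-GS cells, against 74.1% in 5M-GS cells, a difference of -12.0 points (95% interval -18.9 to -4.85, adjusted p = 0.00335 by Fisher's exact test). It was followed by Gm11279 to n-TMcat2 (-10.4 points), n-TSaga8 to Zfp184 (-8.81 points), n-TQctg1 to Prss16 (-6.61 points) and H2ac19 to H2ac18 (-6.15 points), of which only n-TQctg1 to Prss16 reached an adjusted p under 0.05.

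**Figure D4:**
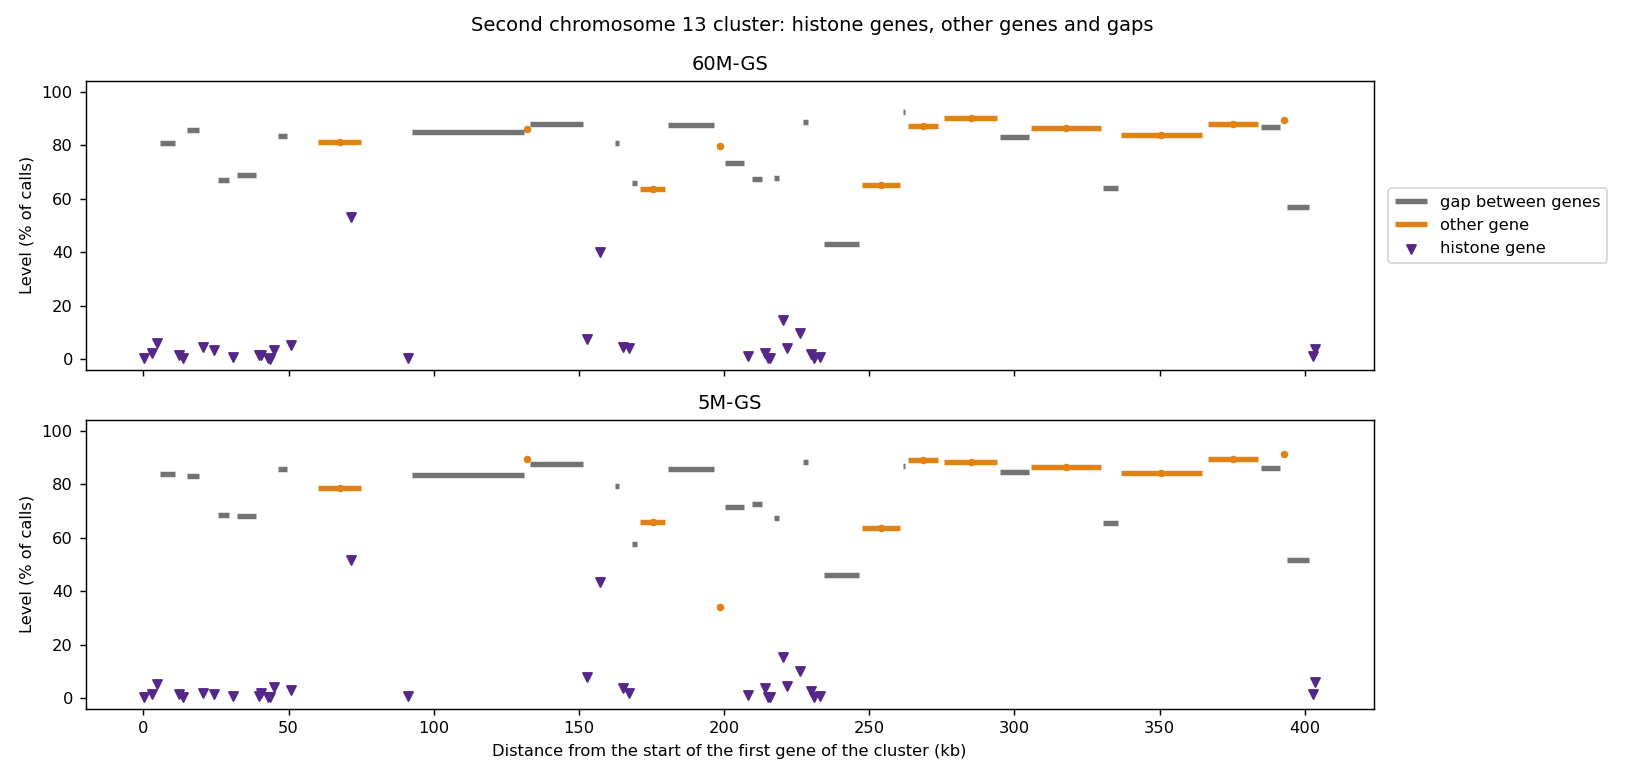
Map of the second chromosome 13 cluster, with 60M-GS in the upper and 5M-GS in the lower panel; the y axis is the level in percent of calls and the x axis the distance in kb from the start of the first gene. Triangles are histone genes with 1 kb flanks, grey bars tested gaps, and orange bars and points other genes with 1 kb flanks. Most histone genes lie under 10% below gaps and other genes at higher levels, and the pseudogene Gm11338 stands at 79.7% in 60M-GS cells and 34.2% in 5M-GS cells.

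The clusters also hold 54 genes outside the symbol rule, of which 53 were tested. The untested gene, H4bc24, had no measured CpG and is itself a histone gene that the rule does not match. The 31 tRNA genes had a median of 4.69% in 60M-GS cells and 2.92% in 5M-GS cells, and 21 of them were under 10% in both. The 9 tested protein-coding genes had a median of 65.0% in 60M-GS cells and 66.0% in 5M-GS cells. Of the 53, 1 gained and 0 lost methylation, against 4.53% and 0.0733% of all gene spans called as a gain and as a loss. The gene called, Gm11338, is a pseudogene of 1500 bp with 913 of 1146 calls methylated (79.7%) in 60M-GS cells and 358 of 1048 (34.2%) in 5M-GS cells. It was 45.5 points higher (95% interval 41.7 to 49.1, adjusted p = 1.02e-104 by Fisher's exact test), a call that was lost where calls were divided by CpGs.

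**Figure D5:**
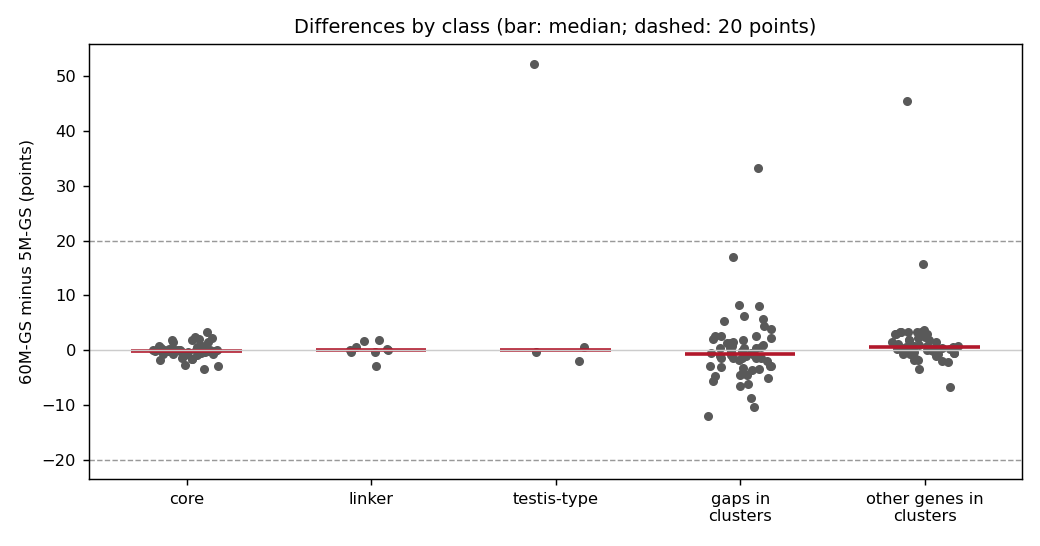
Difference in level, 60M-GS minus 5M-GS in percentage points (y axis), for tested core, linker and testis-type genes, gaps in clusters and other genes in clusters (x axis); each point is 1 gene or gap, bars are medians and dashed lines mark 20 points. Only H1f7 at 52.3, 1 gap at 33.3 and Gm11338 at 45.5 lie past a dashed line.

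Genes that work with the histone genes were listed by role. The background for their calls is that of all gene spans, 4.53% called as a gain and 0.0733% as a loss, at which few or no calls fall in lists of this size. Of 12 listed histone genes found outside the symbol rule, most of them variant genes, 0 were called in either direction. They include H4f16, H2bu2 and H2aw. These had 1.04%, 1.58% and 2.90% in 60M-GS cells and 0.526%, 2.36% and 2.69% in 5M-GS cells. The centromere variant gene Cenpa had 54.7% in 60M-GS cells and 58.2% in 5M-GS cells, and H2ax, whose product marks DNA breaks, had 3.98% in 60M-GS cells and 3.87% in 5M-GS cells. Of 16 regulators of histone genes and mRNAs found, 0 were called. Npat, the coactivator of histone genes in S phase, had 57.8% in 60M-GS cells and 60.3% in 5M-GS cells, and Slbp, the protein that binds the stem-loop, had 43.0% in 60M-GS cells and 41.6% in 5M-GS cells. Of 11 histone chaperones found, 0 were called, with differences from -3.33 to 1.47 points. Without the 20-point minimum, 2 of these 12 histone genes, 8 of the regulators and 4 of the chaperones reached an adjusted p under 0.05 by Fisher's exact test. The background was 17767 of all 45017 gene spans. Differences in these lists were at most 8.40 points in size.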

How the data were processed

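Per the labels' protocols, the libraries used post-bisulfite adaptor tagging. Bismark 0.10.0 and the build mm10 are named in the submitters' processing notes. Every CpG of a deposited table has a count of methylated calls, a count of unmethylated calls and a percent of methylated calls, which the authors computed. Filters and removal of duplicates were not given in the sources used here. Each table pools 2 replicates, so samples were compared as 1 table per age. Levels were computed from the counts alone, at 17077212 CpGs covered by 5 or more calls in each table, and the percent column was not used for them. Spans came from RefSeq (GRCm38.p6). Fisher's exact test was two-sided, and its p-values were adjusted by Benjamini-Hochberg across every region of the same kind that held 4 or more CpGs (single CpGs: 10 or more calls). Intervals are 95% Wilson (levels) and Newcombe (differences), cover counting error only, and were computed with SciPy 1.17.1, NumPy 2.4.6 and pandas 2.3.3 in Python 3.11.15. The test was tried on simulated data with independent calls, so its behaviour with dependent calls on 1 read was not checked. A level of 0 allows up to 3 calls of the total. Clusters joined members under 500 kb apart. Named are all linker, testis-type and called members and list genes, the 5 core genes with the highest 60M-GS level, largest rise and largest fall, the 5 tested gaps with the largest rise and fall, and the most and least covered member; the few other genes and CpGs were chosen after their values were seen. Members and lists were chosen with earlier results of these data known.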

Additional observations from a re-analysis of the deposited data

How the results depend on the processing

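No paired analysis was possible because each table pools its 2 replicates, and for the same reason no replicate could be left out. Each member was recomputed under other minima of calls and CpGs, a limit of 100 calls, equal weight per CpG, other flanks and divided calls. Of 541 gene values, 540 kept their side of the threshold, 0 reversed, and H1f7 lost its call on divided calls. Part of this count was fixed in advance. With divided calls or at least 10 CpGs each difference stayed as it was, so no member but H1f7 could be called. Equal weight per CpG gave no p-value, so H1f7 kept its call there on size alone. The largest difference of any other member was 6.05 points. With calls divided by CpGs, gains fell to 0 histone genes, 226 of all gene spans, 0 genes inside the clusters and 0 gaps, and losses to 0 gene spans, since a span then counts fewer calls. A minimum of 10 points gave 4221 gains and 286 losses over all gene spans, 2 gains among genes inside the clusters, and 2 gains and 1 loss among gaps; 30 points gave 1084 gains and 12 losses over all gene spans. Protein-coding genes alone gave 477 gains and 3 losses. With at least 10 CpGs per region, with clusters joined under 100 kb and where gaps kept other genes, there were 0 gains among gaps. The called gap holds 7 CpGs, so the first setting could not test it. In the second it lay outside the clusters, and in the third it was part of a longer stretch. Its own difference was thus not measured again in these settings. With the 250 bases before the start alone, a setting chosen after seeing the data, 0 histone start windows were called, since H1f7 then holds 3 CpGs, under the minimum of 4. Flanks moved class medians: without them core genes had a median of 0.395% in 60M-GS cells, and with 2 kb 7.42% in 60M-GS cells and 8.29% in 5M-GS cells. Pooled replicates, dependent calls on 1 read and near-identical gene copies limit all these values.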

Other observations

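Other histone genes outside the symbol rule were looked up after their values had been seen. The spermatid linker gene Hils1 on chromosome 11 had 921 of 1032 calls methylated (89.2%) in 60M-GS cells and 934 of 1046 (89.3%) in 5M-GS cells. It was thus methylated at both ages, where H1f7 was so in 60M-GS cells. H3f4, the testis H3 gene on chromosome 11, had 22 of 2470 calls methylated (0.891%) in 60M-GS cells and 69 of 2200 (3.14%) in 5M-GS cells, a difference of -2.25 points (adjusted p = 1.73e-07 by Fisher's exact test).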
